A study of Mus musculus with 9 samples.

Results

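The genes described here are those of the lysosome and of the vacuolar-type ATPase (V-ATPase), the proton pump that acidifies it. They comprised the genes whose symbol begins with Atp6v0 or Atp6v1, which encode the 2 sectors of the pump, and a list of 27 named genes that includes 1 of these subunits, Atp6v1h. Of the 12842 genes in the table of the study, 44 met this rule, 18 V-ATPase subunit genes and 26 other genes of the lysosome. Tfeb and Tfe3 were found by Ensembl identifier, because the table lists them under the earlier symbols Tcfeb and Tcfe3, and a second entry with the symbol Glb1 was set aside because its identifier belongs to the neighbouring gene Tmppe. The protein-coding subunit genes Atp6v0d2, Atp6v1b1, Atp6v1e2, Atp6v1fnb and Atp6v1g3 were not analysed here.

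Lysosomes are the acidic compartments in which cells break down proteins, sugars, lipids and the cargo of autophagy. The V-ATPase hydrolyses ATP in its cytosolic V1 sector and moves protons through its membrane V0 sector, and the acid pH so produced is needed by most lysosomal hydrolases. Many of these genes share a promoter element bound by the transcription factors TFEB and TFE3, which are held in the cytosol when the kinase complex mTORC1 is active at the lysosomal surface.

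RNA-seq profiles of cultured NPK cells were compared in 3 groups of 3 libraries. NPK cells are a mouse prostate cancer line that the authors derived from lung metastases of mice whose alleles include KrasLSL-G12D/+ and an R26R-YFP lineage reporter, and all groups share the genotype of the line. The groups were controls, cells with a lentiviral shRNA that silences Nsd2 (shNsd2), and cells given the treatment named MCTP. Nsd2 encodes a histone methyltransferase that modifies lysine 36 of histone H3, and MCTP39 is a compound that the study calls a putative inhibitor of this enzyme, with the caveat that it may lack specificity. The MCTP libraries are labelled 39, 40 and 41, in the order of their replicate numbers, and in the same order the shNsd2 libraries also bear the names Nsd2, Nsd3 and Nsd4; whether these are different agents is not given in the sources used here. The labels give neither the dose and time of the treatment nor whether control cells carried a control shRNA. Libraries were made from polyadenylated RNA.

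For each gene and library the authors deposited a value on a log2 scale, with the libraries scaled to each other. Read counts were not used here, so library depth is unknown and only the replicates show how precise a value is. For cells sorted from tumours and metastases, the study's methods name a variance stabilization of counts with DESeq2 and no correction for transcript length. The same processing was assumed for these cultured cells. Levels were therefore compared between libraries and not between genes. Such a transform may understate the fold changes of weakly expressed genes, which was not tested. Groups were compared with limma across all genes that passed a filter on low values (a value over 3.78 in 3 or more of the 6 libraries compared), and a gene was called higher or lower at an adjusted p under 0.05. Nothing in the labels says that the replicates are separate cultures, so these p-values measure the spread between libraries, which may be technical. Of the 44 genes, 42 passed the filter for shNsd2 against control and 43 for the comparisons with MCTP. Atp6v1c2 passed in none of them, and Atp6v0a4 passed only through the MCTP libraries, since 1 control library and none of the shNsd2 libraries exceeded the threshold. Its tests against MCTP thus rest on the treatment for their place in the counts, and the counts are also given with a filter passed by 2 or more libraries of each group, a choice made after seeing the data that removed no other of the 44 genes.

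The silenced gene was examined first. Nsd2, listed under its earlier symbol Whsc1 (ENSMUSG00000057406.8), had log2 values of 12.48, 12.43 and 12.42 in the control libraries, 11.55, 11.61 and 11.68 in the shNsd2 libraries and 12.15, 12.21 and 12.07 in the MCTP libraries. All shNsd2 libraries were below all MCTP libraries, and these were below all control libraries. The log2 fold change was -0.83 with shNsd2 (standard error 0.041, adjusted p = 2.26e-06 from limma) and -0.30 with MCTP (standard error 0.054, adjusted p = 0.00562). With each library corrected for the GC content of transcripts, the value with MCTP was -0.12 and no longer past the threshold (adjusted p = 0.0775 from limma).

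With MCTP, more genes of the lysosome and of the proton pump rose than fell. Of the 43 genes tested, 22 (51.2%) rose and 1 (2.33%), the acid ceramidase gene Asah1, fell, where 18.0% of all 12216 genes tested rose (2198 genes) and 17.2% fell (2107 genes). With the filter passed in each group, and so without Atp6v0a4, 21 of 42 (50.0%) rose, against 17.9% of all genes. The median log2 fold change of the 43 genes was 0.17, against -0.0062 over all genes. The rises were led by the proteases Ctsd (0.74) and Ctsa (0.70), the pump subunit Atp6v0a2 (0.54), the peptidase Tpp1 (0.50) and the pump subunit Atp6v0d1 (0.46). In 28 of the 43 genes every MCTP library lay above every control library, which held for 25.8% of all genes (3155); with the filter passed in each group this was 27 of 42, again against 25.8%. In these bulk samples, more RNA per cell and a larger share of cells that hold it cannot be told apart.

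Silencing of Nsd2 gave a different and smaller pattern. Of 42 genes tested, 17 (40.5%) fell and 9 (21.4%) rose, where 24.8% of all 12205 genes tested fell (3021) and 23.1% rose (2815), so the share that rose was near that of all genes. The median log2 fold change was -0.086, against 0.0020 over all genes. Asah1 (-0.43), the V0 subunit Atp6v0a1 (-0.35) and the cholesterol carrier Npc2 (-0.35) fell most, and the autophagy receptor Sqstm1 (0.29) and the V0 subunit Atp6v0a2 (0.23) rose most. In 22 of the 42 genes every shNsd2 library lay below every control library, against 29.1% of all genes (3557). Only 1 of the rises (2.38% of the 42) and 7 of the falls (16.7%) were of at least 0.25 on the log2 scale, against 886 (7.26%) and 1341 of all 12205 genes. Both sets of fold changes use the same 3 control libraries.

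The difference between the treatments was tested directly. Against MCTP, 28 of 43 genes (65.1%) were lower with shNsd2 and none (0) was higher in limma, where 22.6% of all 12217 genes tested were lower (2763) and 20.6% higher (2513). At an unadjusted p under 0.05, 1 gene, Atp6v1g2, was higher. With the filter passed in each group, 27 of 42 (64.3%) were lower, against 22.5% of all genes. The median difference was -0.22, against 0.0072 over all genes. The largest differences were those of Ctsd (-0.63), Atp6v0d1 (-0.62), Tpp1 (-0.59), Atp6v0e2 (-0.58) and Ctsa (-0.54).

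**Figure D1:**
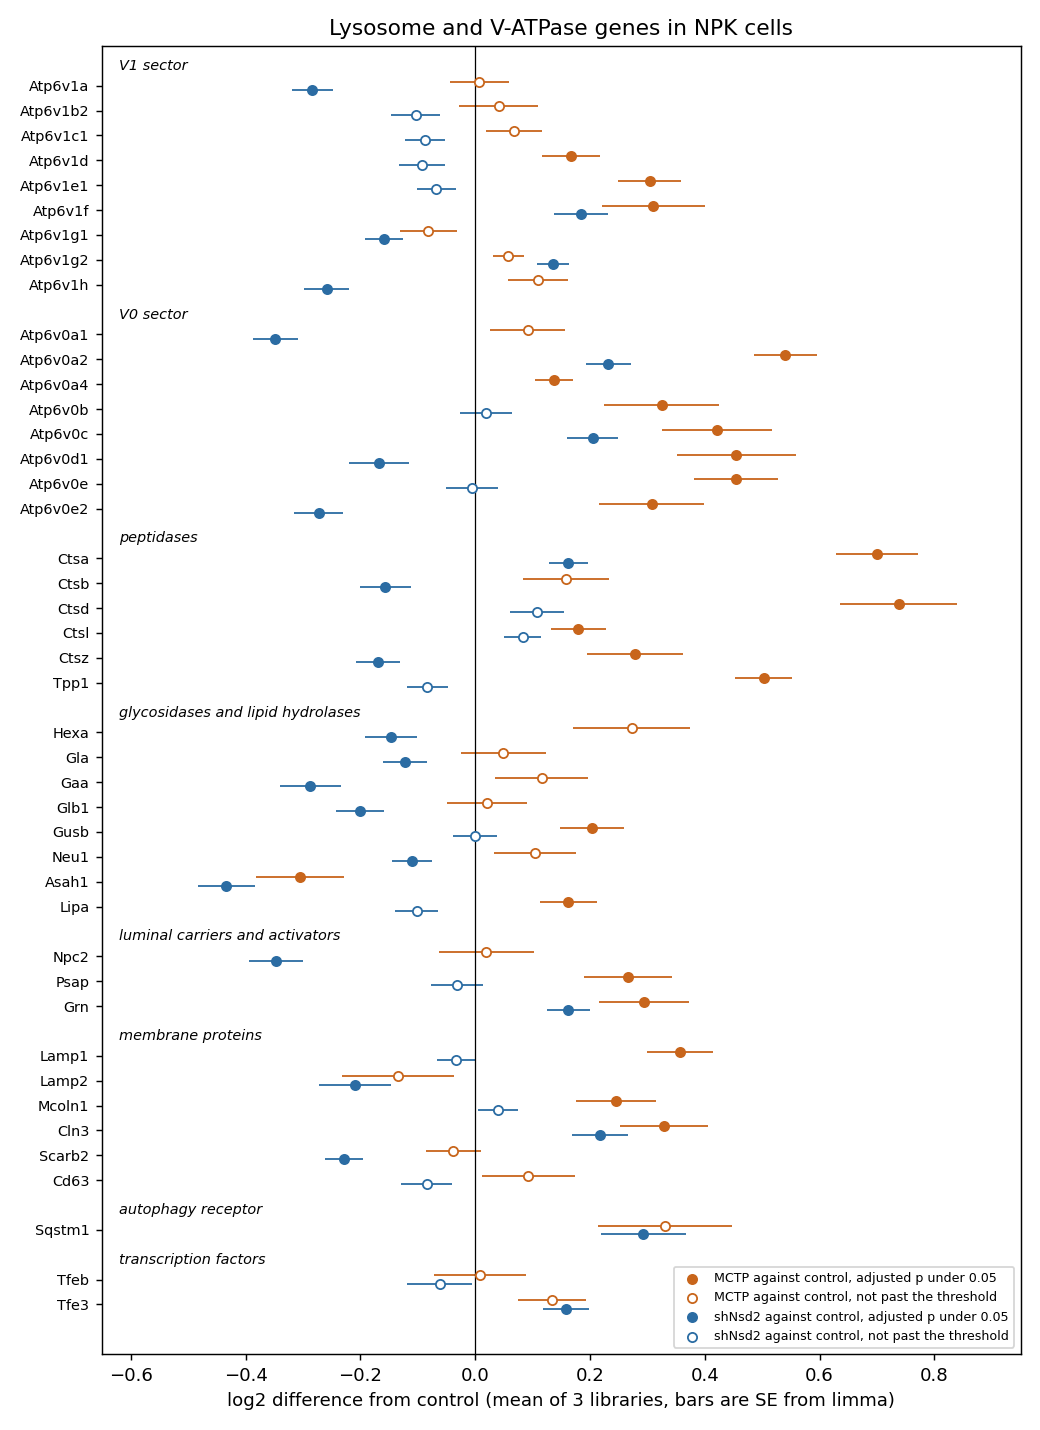
Log2 differences from control (x axis) of the genes of the lysosome and the V-ATPase (y axis, ordered by role) for MCTP (orange) and shNsd2 (blue), each the mean of 3 libraries minus the mean of 3 control libraries with the standard error from limma as a bar and filled points at an adjusted p under 0.05. With MCTP 22 genes, Atp6v0a4 among them, are filled on the right of 0 and 1 on the left, and with shNsd2 9 on the right and 17 on the left.

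The libraries were not equally far from control. The median deviation of the 44 genes from their control means was 0.19, 0.11 and 0.24 in MCTP libraries 1, 2 and 3, and -0.087, -0.077 and -0.082 in the shNsd2 libraries. The control libraries themselves had medians of -0.041, 0.018 and 0.026. By this median, MCTP library 2, labelled 40, was the MCTP library nearest to control, and control library 1 was the lowest of its group.

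The number of rises with MCTP depended on single libraries. It was 8 without control library 1 (10.6% of all genes rose in that fit), 9 without control library 2 (9.95%), 10 without control library 3 (10.8%), 7 without MCTP library 1 (9.19%), 13 without MCTP library 3 (12.8%) and 29 without MCTP library 2 (29.8%). The 7 genes that rose in all 6 of these fits were Ctsd, Ctsa, Tpp1, Lamp1, Atp6v0a2, Atp6v0e and Atp6v1e1. The fall of Asah1 was past the threshold only in the fits without control library 3 and without MCTP library 2, while in the others the adjusted p from limma was between 0.0531 and 0.0864. With replicate number as a block 17 rose and 1 fell, against 13.9% and 14.0% of all genes, and the rises of Atp6v1d, Ctsl, Gusb, Lipa and Psap ended (lowest adjusted p 0.0633 from limma, that of Psap). Median centring, which moved the balance of all called genes from 51.1% to 64.4% higher (2807 higher and 1550 lower), gave 24 rises and 1 fall with MCTP among the 43 genes.

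For shNsd2 the number of rises was 9 in each fit that left out 1 library, and the falls numbered between 11 (without shNsd2 library 2) and 19 (without control library 1). In these fits 16.7% to 24.5% of all genes rose and 18.8% to 24.8% fell. All 9 rises and 11 of the 17 falls (Asah1, Atp6v0a1, Atp6v0e2, Atp6v1a, Atp6v1g1, Atp6v1h, Ctsz, Gaa, Glb1, Npc2 and Scarb2) were called in all 6 of these fits. Median centring gave 10 rises and 12 falls (26.6% and 21.2% of all genes) and the replicate block 9 and 12 (17.2% and 19.7%), and both ended the falls of Atp6v0d1, Ctsb, Gla, Hexa and Neu1. In a fit with a common variance over all 9 libraries the counts were 5 and 10, where 16.5% of all genes rose and 18.9% fell. The rises that ended there were those of Ctsa, Grn, Atp6v0c and Atp6v1f (adjusted p = 0.0684, 0.095, 0.0909 and 0.106 from limma), and the falls were those of Atp6v0d1, Ctsb, Ctsz, Gla, Hexa, Lamp2 and Neu1 (lowest adjusted p 0.08, that of Ctsb, and highest 0.241, that of Hexa). Of the 27 genes lower with shNsd2 than with MCTP and past the filter in each group, 18 were lower in all 6 fits that left out 1 library, where 15.9% to 32.1% of all genes were lower.

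Values also moved with the base composition of transcripts. Across 11952 genes, the deviation from the control mean correlated with GC content at a Spearman rho of -0.604, 0.373 and 0.565 in the control libraries, 0.519, 0.0591 and 0.574 in the MCTP libraries and 0.332, 0.352 and 0.0297 in the shNsd2 libraries; these are descriptions across genes, which share their libraries. The median GC content was 51.0% for the 44 genes and 49.8% for the genes tested. After correction of each library for GC content, 26 of the genes rose and 1 fell with MCTP, 10 rose and 19 fell with shNsd2, and 33 were lower and 1 higher with shNsd2 than with MCTP. Atp6v0a4, which passed the filter only through the MCTP libraries, is among the 26 and the 33. The shares of all genes that rose and fell were then 22.6% and 23.0% with MCTP and 27.9% and 28.2% with shNsd2, and 28.4% were lower and 28.0% higher in the direct comparison. Calls gained were the rises of Atp6v1a, Atp6v1c1, Atp6v1h and Sqstm1 with MCTP, and with shNsd2 the rise of Ctsl and the falls of Atp6v1b2, Cd63 and Tfeb, while the fall of Gla was lost. In the direct comparison Asah1, Atp6v1b2, Cd63, Ctsl and Lamp2 were then lower and Atp6v1g2 higher.

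**Figure D2:**
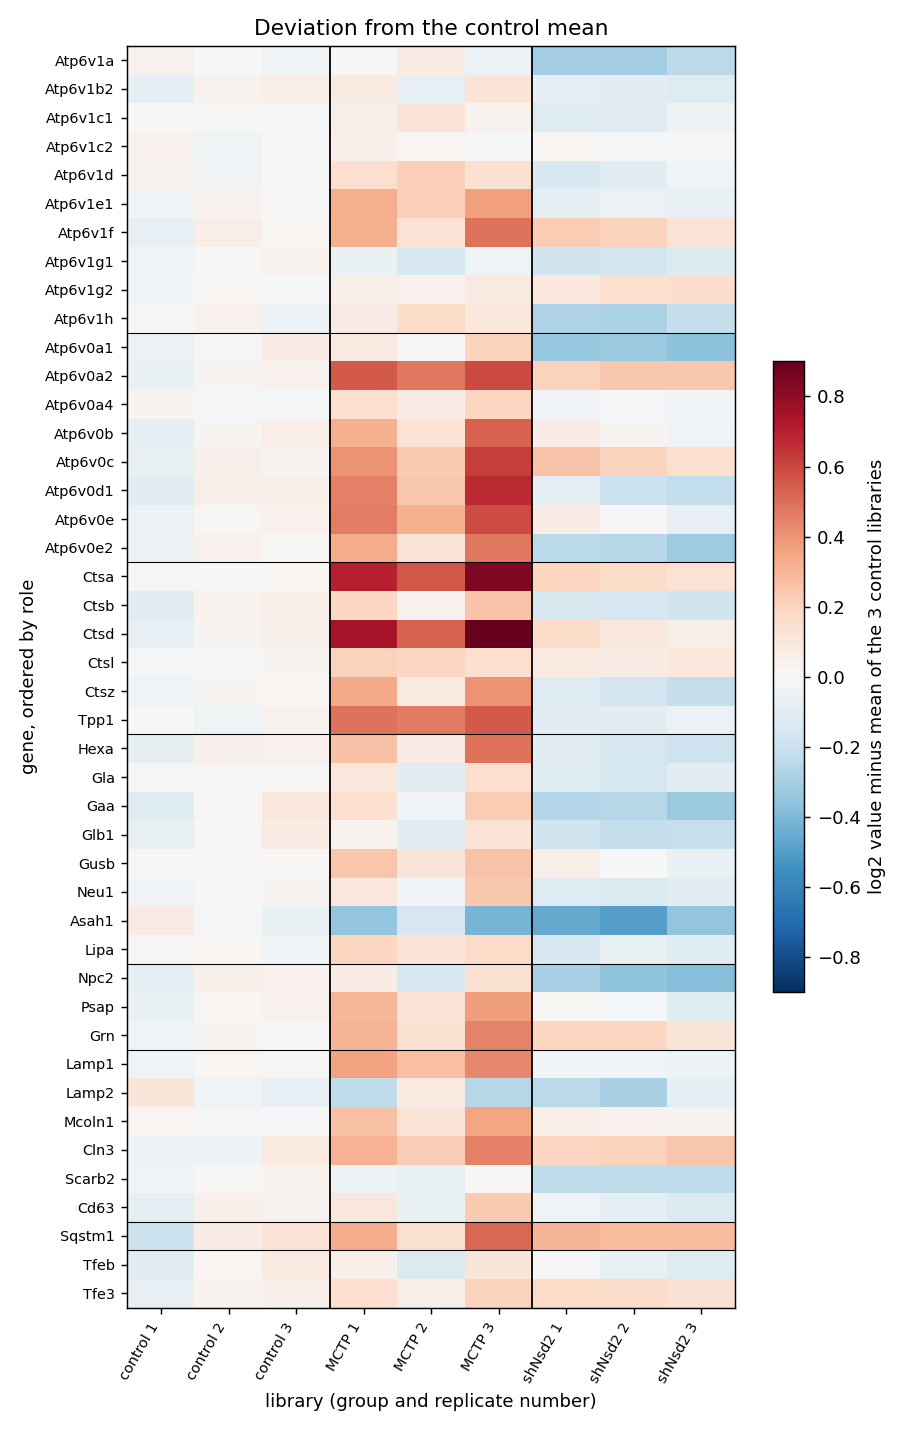
Deviation of the log2 value of each gene (top to bottom, ordered by role) from the mean of the 3 control libraries, for each of the 9 libraries (columns), from blue (lower) to red (higher). Most V0 subunits and peptidases are red in the MCTP columns, and the median over the 44 genes is 0.11 in MCTP 2 against 0.19 and 0.24 in the others.

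The genes are described by role below, and the shares of all genes beside which their counts stand are 18.0% higher and 17.2% lower with MCTP, 23.1% and 24.8% with shNsd2, and 20.6% and 22.6% in the direct comparison. In the V1 sector, which hydrolyses ATP, 9 of the 10 subunit genes were tested. With shNsd2, 3 fell and 2 rose (median -0.092), and with MCTP 3 rose and none (0) fell (median 0.067; 0 also at an unadjusted p under 0.05 in limma). After GC correction 6 rose with MCTP and 4 fell with shNsd2. Leaving out 1 library gave 1 to 3 rises with MCTP and 3 to 5 falls with shNsd2. The gene of the catalytic subunit, Atp6v1a, had values of 11.91, 11.88 and 11.84 in control, 11.57, 11.57 and 11.64 in shNsd2 and 11.88, 11.95 and 11.82 in MCTP libraries. Its shNsd2 values lay below all others, and its MCTP values overlapped with control. It fell by 0.28 on the log2 scale with shNsd2 (standard error 0.036, adjusted p = 0.000336 from limma), the value with MCTP was 0.0073 (adjusted p = 0.921; 0.11 and past the threshold after GC correction, adjusted p = 0.0263), and the direct difference was -0.29 (adjusted p = 0.00338). Atp6v1h encodes a subunit needed for activity of the assembled pump. It was 10.56, 10.59 and 10.50 in control, 10.27, 10.27 and 10.33 in shNsd2 and 10.62, 10.71 and 10.64 in MCTP libraries, so that shNsd2 was again below both other groups and MCTP was above control. The log2 fold change was -0.26 with shNsd2 (standard error 0.040, adjusted p = 0.000838 from limma) and 0.11 with MCTP (adjusted p = 0.134), with a direct difference of -0.37 (adjusted p = 0.00109). After GC correction the value with MCTP was 0.33 and past the threshold (adjusted p = 0.0111 from limma), and the direct difference was -0.57. Atp6v1g1, a subunit of the peripheral stalks, fell by 0.16 with shNsd2 (adjusted p = 0.00455 from limma), where its values were 11.78, 11.78 and 11.83 against 11.93, 11.95 and 11.99 in control; with MCTP they were 11.89, 11.81 and 11.91. Its isoform Atp6v1g2, known mainly from neurons, was weakly expressed (4.46, 4.50 and 4.49 in control and 4.58, 4.63 and 4.65 in shNsd2 libraries) and rose by 0.14 with shNsd2 (adjusted p = 0.0035 from limma). Its direct difference was 0.077 (adjusted p = 0.0568) and 0.11 after GC correction (adjusted p = 0.0354).

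Other V1 genes moved with MCTP. Atp6v1e1, which encodes a peripheral stalk subunit, was 11.38, 11.44 and 11.40 in control, 11.73, 11.62 and 11.78 in MCTP and 11.32, 11.36 and 11.34 in shNsd2 libraries. Every MCTP value lay above every control value, and every shNsd2 value below. It rose by 0.30 with MCTP (standard error 0.056, adjusted p = 0.00605 from limma), the value with shNsd2 was -0.067 (adjusted p = 0.126), and the direct difference was -0.37 (adjusted p = 0.00142). Atp6v1d, part of the central rotor, had values of 10.34, 10.27 and 10.30 in control, 10.46, 10.52 and 10.44 in MCTP and 10.17, 10.20 and 10.27 in shNsd2 libraries, with no overlap of either group with control. Its log2 fold change was 0.17 with MCTP (standard error 0.050, adjusted p = 0.036 from limma; 0.33 after GC correction) and -0.092 with shNsd2 (adjusted p = 0.0894; -0.033 after GC correction), and the groups differed directly by -0.26 (adjusted p = 0.00555). Atp6v1f, another subunit of the central stalk, was 11.12, 11.26 and 11.22 in control, 11.52, 11.33 and 11.69 in MCTP and 11.43, 11.41 and 11.32 in shNsd2 libraries. It was higher than control in both groups, by 0.31 with MCTP (standard error 0.090, adjusted p = 0.0324 from limma) and by 0.18 with shNsd2 (standard error 0.047, adjusted p = 0.0108), while the direct difference of -0.13 was not past the threshold (adjusted p = 0.277). Without any 1 of the control libraries or of MCTP libraries 1 and 3, the rises of Atp6v1d and Atp6v1f with MCTP were not past the threshold (highest adjusted p 0.143 and 0.107 from limma).

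Atp6v1c1, whose product takes part in the reversible assembly of the sectors, had values of 10.70, 10.71 and 10.68 in control, 10.75, 10.81 and 10.73 in MCTP and 10.58, 10.59 and 10.65 in shNsd2 libraries. It was not past the threshold against control (0.067 with MCTP, adjusted p = 0.296 from limma, and 0.18 with adjusted p = 0.00702 after GC correction; -0.087 with shNsd2, adjusted p = 0.07, and -0.028 after GC correction), but the groups differed directly (-0.15, standard error 0.048, adjusted p = 0.0333). That call ended without MCTP library 1 or without any 1 of the shNsd2 libraries (highest adjusted p 0.129 from limma). Atp6v1b2, the nucleotide-binding partner of the catalytic subunit, lay between 11.72 and 11.96 in all libraries and was not past the threshold in any comparison as the values were deposited. After GC correction it was lower with shNsd2 than in control (-0.11, adjusted p = 0.0248 from limma) and with MCTP (-0.12, adjusted p = 0.0426). The isoform gene Atp6v1c2 lay between 3.65 and 3.72, under the filter.

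In the V0 sector, through which protons pass, 6 of the 7 genes that passed the filter in each group rose with MCTP (median 0.42), and in the direct comparison 6 were lower with shNsd2 than with MCTP (median -0.44). Leaving out 1 library gave 2 to 7 rises among all 8. With shNsd2, 3 of the same 7 fell and 2 rose (median -0.0048). Atp6v0d1, the subunit that joins the central stalk to the membrane ring, had values of 11.19, 11.33 and 11.34 in control, 11.74, 11.53 and 11.96 in MCTP and 11.20, 11.10 and 11.07 in shNsd2 libraries. All MCTP values were above control, and 1 of the shNsd2 values lay above the lowest control value. It rose by 0.46 with MCTP, to 1.37 times control (standard error 0.10, adjusted p = 0.0141 from limma), fell by 0.17 with shNsd2 (standard error 0.052, adjusted p = 0.0262), and differed directly by -0.62 (adjusted p = 0.0027). The rise was not past the threshold without MCTP library 1 (0.46, adjusted p = 0.0586 from limma) or control library 1 (0.41, adjusted p = 0.0524). The fall was not past it without any 1 of control libraries 2 and 3 and shNsd2 libraries 2 and 3 (highest adjusted p 0.0963 from limma).

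Both genes of the small e subunit were higher with MCTP. Atp6v0e was 10.96, 11.03 and 11.06 in control, 11.48, 11.34 and 11.60 in MCTP and 11.08, 11.01 and 10.95 in shNsd2 libraries, so only MCTP stood apart. Its log2 fold change was 0.45 with MCTP (standard error 0.073, adjusted p = 0.00369 from limma), -0.0048 with shNsd2 (adjusted p = 0.94; 0.018 with median centring and 0.053 after GC correction), and -0.46 for shNsd2 against MCTP (adjusted p = 0.0027). The paralog Atp6v0e2 was 9.74, 9.83 and 9.81 in control, 10.13, 9.91 and 10.27 in MCTP and 9.55, 9.54 and 9.48 in shNsd2 libraries. Here the 3 groups did not overlap, with MCTP highest and shNsd2 lowest. It rose by 0.31 with MCTP (standard error 0.091, adjusted p = 0.0347 from limma), fell by 0.27 with shNsd2 (standard error 0.043, adjusted p = 0.000955), and the direct difference was -0.58 (adjusted p = 0.00216). The rise was past the threshold in 1 of the 6 fits that left out a library, that without MCTP library 2 (highest adjusted p in the others 0.119 from limma).

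The proton-carrying ring is made by Atp6v0c and Atp6v0b. Atp6v0c had values of 12.90, 13.01 and 12.99 in control, 13.37, 13.20 and 13.59 in MCTP and 13.23, 13.17 and 13.12 in shNsd2 libraries, and both groups were above control in every library. It rose by 0.42 with MCTP (standard error 0.10, adjusted p = 0.0138 from limma) and by 0.20 with shNsd2 (standard error 0.044, adjusted p = 0.0048). Without MCTP library 1 or control library 1 the first of these had an adjusted p of 0.0555 and 0.0522. The table also lists the pseudogene Atp6v0c-ps2, as Gm15487, with 0.39 with MCTP and 0.19 with shNsd2 (adjusted p = 0.0204 and 0.00996 from limma); whether reads were shared between it and Atp6v0c is not given in the sources used here, so the values of both are uncertain. Atp6v0b was 11.41, 11.52 and 11.55 in control, 11.81, 11.62 and 12.03 in MCTP and 11.56, 11.52 and 11.46 in shNsd2 libraries. It rose by 0.33 with MCTP (adjusted p = 0.039 from limma), a call made in 1 of the 6 fits without a library, that without MCTP library 2 (highest adjusted p in the others 0.123), and did not pass the threshold with shNsd2 (0.019, adjusted p = 0.752; -0.028 after GC correction). Its direct difference of -0.31 (adjusted p = 0.0369 from limma) was also called in 1 of 6 such fits (highest adjusted p 0.113).

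The a subunit forms the proton path and sets in which membrane the pump is placed, and its isoforms differed from each other. Atp6v0a1 had values of 12.43, 12.46 and 12.55 in control, 12.14, 12.15 and 12.12 in shNsd2 and 12.56, 12.48 and 12.68 in MCTP libraries. The shNsd2 values were below all others, and the MCTP values overlapped with control. It fell by 0.35 with shNsd2 (standard error 0.039, adjusted p = 0.000168 from limma), to 0.786 times control, was 0.091 with MCTP (adjusted p = 0.297; 0.14 after GC correction), and differed directly by -0.44 (adjusted p = 0.00113). Atp6v0a2, the isoform best known from the Golgi and endosomes, was 10.44, 10.52 and 10.54 in control, 10.71, 10.74 and 10.74 in shNsd2 and 11.05, 10.98 and 11.09 in MCTP libraries. The groups did not overlap, and control was lowest. It rose by 0.54 with MCTP, to 1.45 times control (standard error 0.055, adjusted p = 0.000543 from limma), and by 0.23 with shNsd2 (standard error 0.039, adjusted p = 0.00138). The difference between the log2 values of Atp6v0a2 and Atp6v0a1 within a library was -1.99, -1.94 and -2.02 in control, -1.43, -1.40 and -1.37 in shNsd2 and -1.51, -1.50 and -1.59 in MCTP libraries. It was thus closer to 0 in all treated libraries than in any control library, with means of -1.98 ± 0.038, -1.40 ± 0.030 and -1.53 ± 0.049 (SD, n = 3), and was not tested. Tcirg1 encodes the a3 isoform but bears a symbol outside the rule for the 44 genes. It was 10.61, 10.44 and 10.50 in control, 10.64, 10.65 and 10.81 in MCTP and 10.47, 10.58 and 10.53 in shNsd2 libraries, and was past the threshold neither with MCTP (0.18, adjusted p = 0.072 from limma; 0.079 after GC correction) nor with shNsd2 (0.0080, adjusted p = 0.911; -0.056 after GC correction) nor directly (-0.17, adjusted p = 0.0538; -0.14 and past it after GC correction, adjusted p = 0.0457). Atp6v0a4, the isoform of acid-secreting kidney cells, lay near the lowest values of the table (3.81, 3.78 and 3.77 in control, 3.93, 3.86 and 3.98 in MCTP and 3.75, 3.77 and 3.76 in shNsd2 libraries). Its calls are among the 22 rises and the 28 lower genes counted over 43 genes, and nothing is read from them. The same holds for its calls among the 26 rises and the 33 lower genes after GC correction, and among the 17 rises with the replicate block.

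**Figure D3:**
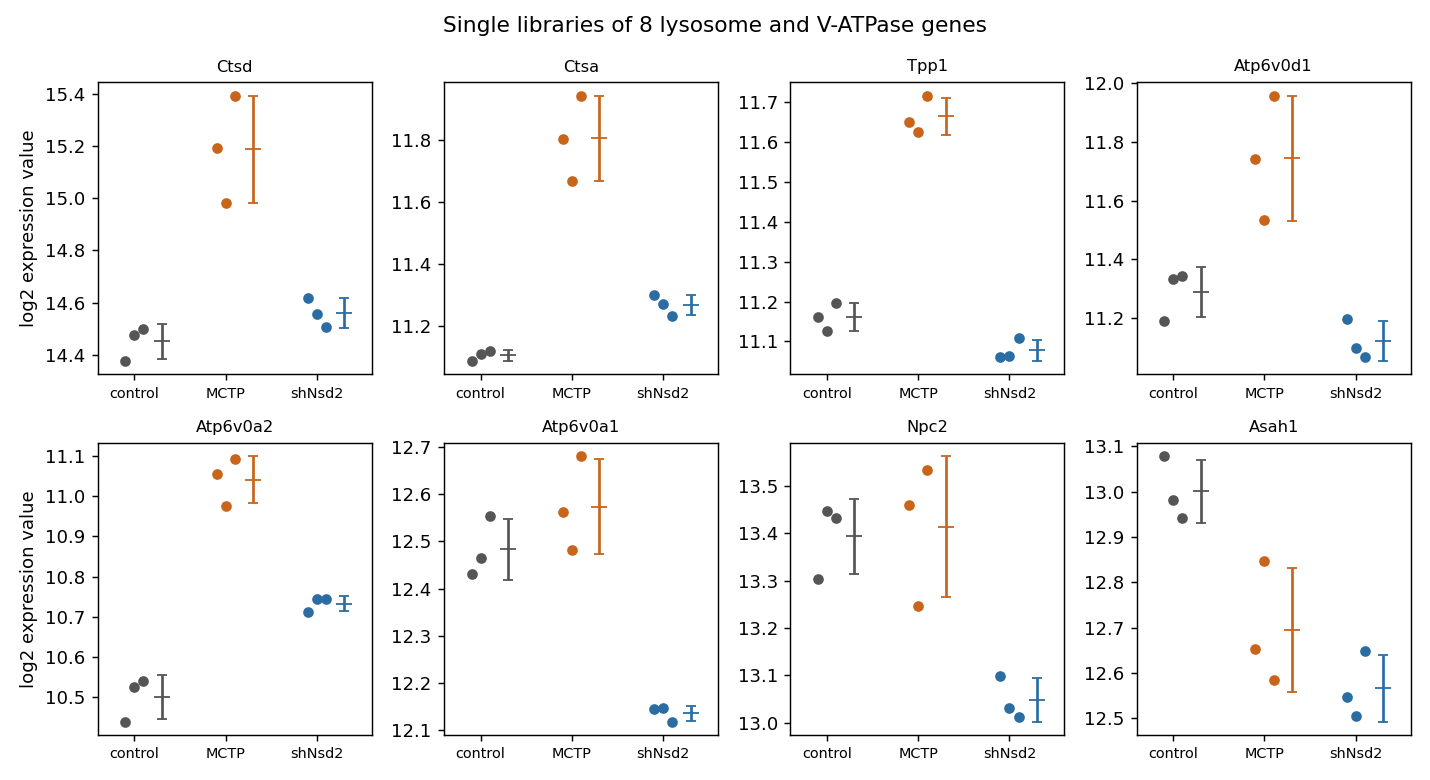
Log2 expression values (y axis, a different range in each panel) of 8 genes in the single libraries of control (grey), MCTP (orange) and shNsd2 (blue) cells, with the mean and SD of each group (n = 3) at its right. Ctsd, Ctsa, Tpp1, Atp6v0d1 and Atp6v0a2 are highest in MCTP, while Atp6v0a1 and Npc2 are lowest in shNsd2 and Asah1 is lower in both treated groups than in control.

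Of the 6 peptidase genes, 5 rose with MCTP (median 0.39; 3 to 6 when 1 library was left out), and 5 were lower with shNsd2 than with MCTP (median -0.49). With shNsd2 against control, 1 rose and 2 fell (median -0.00015). Ctsd encodes cathepsin D, the main aspartic protease of the lysosome. Its values were 14.38, 14.48 and 14.50 in control, 15.19, 14.98 and 15.39 in MCTP and 14.62, 14.55 and 14.51 in shNsd2 libraries. On a linear scale the MCTP libraries were at 1.67, 1.44 and 1.92 times the control mean, all above every other library, and the shNsd2 libraries were above all controls by a smaller margin. Ctsd rose by 0.74 with MCTP (standard error 0.10, adjusted p = 0.00199 from limma), was 0.11 with shNsd2 (adjusted p = 0.0859; 0.061 after GC correction), and differed directly by -0.63 (standard error 0.10, adjusted p = 0.00247). Leaving out single libraries kept the value with MCTP between 0.64 and 0.84, and it was 0.64 after GC correction. Ctsa encodes cathepsin A, a carboxypeptidase that also protects the galactosidase and sialidase of lysosomes. It was 11.09, 11.11 and 11.12 in control, 11.80, 11.67 and 11.94 in MCTP and 11.30, 11.27 and 11.23 in shNsd2 libraries, with no overlap between the 3 groups. It rose by 0.70 with MCTP (standard error 0.072, adjusted p = 0.000559 from limma) and by 0.16 with shNsd2 (standard error 0.034, adjusted p = 0.00416), and was lower with shNsd2 than with MCTP (-0.54, adjusted p = 0.00116).

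Tpp1 encodes a peptidase that removes tripeptides from the ends of proteins. Values were 11.16, 11.12 and 11.20 in control, 11.65, 11.63 and 11.72 in MCTP and 11.06, 11.06 and 11.11 in shNsd2 libraries. The MCTP libraries agreed closely with each other and lay above all others, and the shNsd2 libraries lay just below control. The rise with MCTP was 0.50 (standard error 0.049, adjusted p = 0.00045 from limma), the value with shNsd2 was -0.083 (adjusted p = 0.0806), and the direct difference was -0.59 (standard error 0.045, adjusted p = 0.000108). The cysteine cathepsins were less uniform. Ctsz, a carboxypeptidase, was 11.32, 11.38 and 11.38 in control, 11.70, 11.45 and 11.77 in MCTP and 11.24, 11.19 and 11.14 in shNsd2 libraries, with MCTP above and shNsd2 below all controls. It rose by 0.28 with MCTP (standard error 0.083, adjusted p = 0.0354 from limma; 0.18 after GC correction), fell by 0.17 with shNsd2 (standard error 0.038, adjusted p = 0.00645) and differed directly by -0.45 (adjusted p = 0.00484). Ctsb was 13.82, 13.95 and 13.98 in control, 14.10, 13.95 and 14.17 in MCTP and 13.77, 13.77 and 13.74 in shNsd2 libraries, and its MCTP and control values overlapped. It fell by 0.16 with shNsd2 (standard error 0.045, adjusted p = 0.0185 from limma), was 0.16 with MCTP (adjusted p = 0.127), and differed directly by -0.31 (adjusted p = 0.00716). Ctsl rose by 0.18 with MCTP (adjusted p = 0.0235 from limma; 0.29 after GC correction), from 13.44, 13.44 and 13.48 to 13.65, 13.63 and 13.60, and the value with shNsd2 was 0.083 (adjusted p = 0.061; 0.14 after GC correction, adjusted p = 0.00493). In the fits without 1 library, the rise of Ctsz was past the threshold only without MCTP library 2 (highest adjusted p in the others 0.133 from limma), that of Ctsl only without MCTP library 2 or 3 (0.108), and the fall of Ctsb only without control library 1 or shNsd2 library 3 (0.0713).

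Of the 8 glycosidase and lipid hydrolase genes, 6 fell and none (0) rose with shNsd2 (median -0.13; 0 rises also at an unadjusted p under 0.05 in limma). The falls numbered 3 with the replicate block, 3 with median centring and 3 to 6 when 1 library was left out. With MCTP 2 rose and 1 fell (median 0.11), and 0 to 5 rose when 1 library was left out. Asah1 encodes acid ceramidase, which cleaves ceramide to sphingosine. Its values were 13.08, 12.98 and 12.94 in control, 12.65, 12.85 and 12.58 in MCTP and 12.55, 12.51 and 12.65 in shNsd2 libraries. All treated libraries lay below all control libraries, and the treated groups overlapped with each other. Asah1 fell by 0.43 with shNsd2, to 0.74 times control (standard error 0.050, adjusted p = 0.000173 from limma), and by 0.31 with MCTP (standard error 0.077, adjusted p = 0.0203). Its fall with MCTP was -0.17 after GC correction (adjusted p = 0.00658 from limma), and the direct difference of -0.13 was not past the threshold (adjusted p = 0.208), though it was -0.20 and past it after GC correction (adjusted p = 0.00191). Gaa, the glucosidase that breaks down glycogen, was 11.998, 12.115 and 12.207 in control, 12.257, 12.078 and 12.332 in MCTP and 11.842, 11.848 and 11.769 in shNsd2 libraries, with shNsd2 below all others. It fell by 0.29 with shNsd2 (standard error 0.053, adjusted p = 0.0023 from limma), was 0.12 with MCTP (adjusted p = 0.287; 0.013 after GC correction), and differed directly by -0.40 (adjusted p = 0.00354).

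Of the other glycosidases, Glb1, Hexa, Neu1 and Gla fell by less, and Gusb did not pass the threshold with shNsd2. Glb1, the lysosomal galactosidase, was 11.40, 11.46 and 11.54 in control, 11.50, 11.37 and 11.59 in MCTP and 11.29, 11.26 and 11.26 in shNsd2 libraries. It fell by 0.20 with shNsd2 (standard error 0.042, adjusted p = 0.0042 from limma), was 0.020 with MCTP (adjusted p = 0.836), a value whose sign turned after GC correction (-0.022), and differed directly by -0.22 (adjusted p = 0.0239). Hexa, a subunit of the hexosaminidase that degrades gangliosides, had values of 11.54, 11.67 and 11.67 in control, 11.89, 11.69 and 12.12 in MCTP and 11.53, 11.48 and 11.44 in shNsd2 libraries. It lay below all controls with shNsd2 (-0.15, standard error 0.045, adjusted p = 0.0248 from limma) and above them with MCTP without passing the threshold (0.27, adjusted p = 0.0712), and the direct difference was -0.42 (adjusted p = 0.0126). Neu1, the sialidase that works in a complex with Ctsa and Glb1, was 10.072, 10.091 and 10.119 in control, 10.192, 10.069 and 10.334 in MCTP and 9.979, 9.972 and 10.001 in shNsd2 libraries. It fell by 0.11 with shNsd2 (standard error 0.035, adjusted p = 0.0304 from limma), was 0.10 with MCTP (adjusted p = 0.28; 0.035 after GC correction) and differed directly by -0.21 (adjusted p = 0.0416). Gla, which removes galactose from glycolipids, fell by 0.12 with shNsd2 (adjusted p = 0.0273 from limma), from 9.41, 9.44 and 9.43 to 9.32, 9.27 and 9.32, and was 0.049 with MCTP (adjusted p = 0.62; 0.11 after GC correction). That fall was -0.079 and not past the threshold after GC correction (adjusted p = 0.0775 from limma), which brought the falls of these 8 genes to 5. The falls of Hexa, Neu1 and Gla were past the threshold in 2 of the 6 fits without a library, and those without control library 2, control library 3 or shNsd2 library 2 ended all of them (highest adjusted p 0.0979, 0.118 and 0.128 from limma); the remaining loss was without shNsd2 library 3 for Hexa and without shNsd2 library 1 for Neu1 and Gla. The direct difference of Hexa was lost without MCTP library 1 (adjusted p = 0.0514 from limma), and those of Glb1 and Neu1 were past the threshold only without MCTP library 2 (highest adjusted p in the others 0.0855 and 0.121).

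Gusb and Lipa were the hydrolase genes that rose with MCTP. Gusb, the glucuronidase, was 11.61, 11.64 and 11.64 in control, 11.88, 11.74 and 11.89 in MCTP and 11.69, 11.64 and 11.57 in shNsd2 libraries. Lipa, the acid lipase that frees cholesterol from its esters, was 10.26, 10.27 and 10.21 in control, 10.44, 10.37 and 10.42 in MCTP and 10.11, 10.18 and 10.13 in shNsd2 libraries. The MCTP values of both genes lay above all controls, and the shNsd2 values of Lipa lay below them. The log2 fold change of Gusb was 0.20 with MCTP (standard error 0.056, adjusted p = 0.0267 from limma) and -0.00031 with shNsd2 (adjusted p = 0.995; 0.022 with median centring), with a direct difference of -0.20 (adjusted p = 0.0261). That of Lipa was 0.16 with MCTP (standard error 0.049, adjusted p = 0.0372 from limma; 0.33 after GC correction) and -0.10 with shNsd2 (adjusted p = 0.0518; -0.043 after GC correction), with a direct difference of -0.26 (adjusted p = 0.00398). Both rises, and the direct difference of Gusb, were past the threshold in 1 of 6 fits without a library, that without MCTP library 2 (highest adjusted p in the others 0.109, 0.138 and 0.104 from limma).

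Among the soluble carriers and activators, Npc2, which hands cholesterol to the lysosomal membrane, had values of 13.30, 13.45 and 13.43 in control, 13.10, 13.03 and 13.01 in shNsd2 and 13.46, 13.25 and 13.53 in MCTP libraries. The shNsd2 libraries, at 0.815, 0.778 and 0.767 times the control mean, were below all others, and the MCTP libraries overlapped with control. Npc2 fell by 0.35 with shNsd2 (standard error 0.046, adjusted p = 0.000415 from limma). With MCTP the value was 0.019 (adjusted p = 0.868) and turned to -0.026 after GC correction, and the direct difference was -0.37 (adjusted p = 0.00792). Psap, the precursor of the saposins that present lipids to hydrolases, was 14.76, 14.84 and 14.86 in control, 15.12, 14.94 and 15.20 in MCTP and 14.84, 14.80 and 14.73 in shNsd2 libraries, with only MCTP apart from control. It rose by 0.27 with MCTP (standard error 0.077, adjusted p = 0.0317 from limma), was -0.031 with shNsd2 (adjusted p = 0.595; -0.072 after GC correction) and differed directly by -0.30 (adjusted p = 0.0161). Grn, the precursor of granulins, was 12.27, 12.33 and 12.32 in control, 12.61, 12.44 and 12.75 in MCTP and 12.50, 12.49 and 12.42 in shNsd2 libraries, above control in both treated groups. It rose by 0.29 with MCTP (standard error 0.078, adjusted p = 0.024 from limma) and by 0.16 with shNsd2 (standard error 0.037, adjusted p = 0.00662). The rise of Psap with MCTP was past the threshold only without MCTP library 2, and that of Grn only without MCTP library 2 or 3 (highest adjusted p in the other fits 0.115 and 0.0889 from limma). The direct difference of Psap was not past it without MCTP library 1, shNsd2 library 2 or shNsd2 library 3 (highest adjusted p 0.0688 from limma).

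Of the 6 genes of lysosomal membrane proteins, 3 rose with MCTP (median 0.17; 1 to 4 when 1 library was left out), and 1 rose and 2 fell with shNsd2 (median -0.059). Lamp1, one of the most abundant glycoproteins of this membrane, was 13.88, 13.93 and 13.92 in control, 14.28, 14.19 and 14.34 in MCTP and 13.88, 13.89 and 13.87 in shNsd2 libraries. The MCTP libraries were at 1.29, 1.21 and 1.35 times the control mean and above all others. Lamp1 rose by 0.36 with MCTP (standard error 0.058, adjusted p = 0.00381 from limma), was -0.033 with shNsd2 (adjusted p = 0.444; -0.049 after GC correction), and differed directly by -0.39 (adjusted p = 0.00139). Its paralog Lamp2, which also takes part in autophagy, was 12.26, 12.12 and 12.08 in control, 11.92, 12.24 and 11.90 in MCTP and 11.91, 11.86 and 12.06 in shNsd2 libraries. Here MCTP library 2 lay within the control range while MCTP libraries 1 and 3 lay below it. Lamp2 fell by 0.21 with shNsd2 (standard error 0.062, adjusted p = 0.022 from limma), a call lost without shNsd2 library 1 or 2 (adjusted p = 0.0768 and 0.086). With MCTP it was -0.13 (adjusted p = 0.302 from limma), a value that became 0.081 after GC correction, and the direct difference went from -0.075 (adjusted p = 0.566) to -0.26 (adjusted p = 0.000333).

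The channel gene Mcoln1, whose product releases calcium from lysosomes, was 9.95, 9.92 and 9.93 in control, 10.20, 10.05 and 10.29 in MCTP and 9.99, 9.97 and 9.96 in shNsd2 libraries. Cln3, which encodes a membrane protein mutated in a lysosomal storage disease of neurons, was 8.90, 8.90 and 9.03 in control, 9.26, 9.16 and 9.40 in MCTP and 9.14, 9.15 and 9.20 in shNsd2 libraries. Every treated library was above every control library in both genes. Mcoln1 rose by 0.25 with MCTP (standard error 0.069, adjusted p = 0.0292 from limma) and was 0.041 with shNsd2 (adjusted p = 0.364). The rise, and the direct difference of -0.20 (adjusted p = 0.0414), were past the threshold in only 1 of the fits without a library, that without MCTP library 2 (highest adjusted p in the others 0.107 and 0.129 from limma). Cln3 rose by 0.33 with MCTP (standard error 0.076, adjusted p = 0.015 from limma) and by 0.22 with shNsd2 (standard error 0.049, adjusted p = 0.00599), the first of which was lost without MCTP library 1, control library 1 or control library 2 (adjusted p = 0.0577, 0.0563 and 0.0637). Scarb2, an integral protein of this membrane that also serves as a sorting receptor, was 11.89, 11.94 and 11.97 in control, 11.71, 11.70 and 11.71 in shNsd2 and 11.89, 11.87 and 11.94 in MCTP libraries, and only shNsd2 stood below. It fell by 0.23 with shNsd2 (standard error 0.033, adjusted p = 0.000623 from limma), was -0.038 with MCTP (adjusted p = 0.552; 0.025 after GC correction), and differed directly by -0.19 (adjusted p = 0.00933; 0.0529 without shNsd2 library 2). The tetraspanin gene Cd63 lay between 13.58 and 13.95 and was not past the threshold in any comparison as deposited (0.092 with MCTP, which became -0.0095 after GC correction, and -0.085 with shNsd2; adjusted p = 0.391 and 0.151 from limma). After GC correction it was lower with shNsd2 than in control (-0.15, adjusted p = 0.00207) and with MCTP (-0.14, adjusted p = 0.0226).

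Sqstm1 encodes an autophagy receptor that is itself degraded in lysosomes. Its values were 14.20, 14.46 and 14.53 in control, 14.73, 14.54 and 14.92 in MCTP and 14.70, 14.68 and 14.69 in shNsd2 libraries. Control library 1 was lower than the other controls by more than 0.2, and all treated libraries lay above all controls. Sqstm1 rose by 0.29 with shNsd2 (standard error 0.074, adjusted p = 0.0108 from limma) and was 0.33 with MCTP, which was not past the threshold (standard error 0.12, adjusted p = 0.0599; 0.25 and past it after GC correction, adjusted p = 0.0393). The groups did not differ past the threshold from each other (-0.038, adjusted p = 0.761 from limma; 0.0038 after GC correction and 0.015 with quantile normalization). Without control library 1 the value with shNsd2 was 0.20.

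Of the transcription factors of the pathway, neither was past the threshold with MCTP and 1, Tfe3, rose with shNsd2. Tfeb (ENSMUSG00000023990.11) was 8.27, 8.39 and 8.45 in control, 8.42, 8.24 and 8.48 in MCTP and 8.37, 8.30 and 8.25 in shNsd2 libraries, and the groups overlapped. Its log2 fold change was 0.0093 with MCTP (standard error 0.080, adjusted p = 0.935 from limma) and -0.062 with shNsd2 (standard error 0.057, adjusted p = 0.395); after GC correction these were -0.090 (adjusted p = 0.141) and -0.15, the second then past the threshold (adjusted p = 0.00932). Tfe3 (ENSMUSG00000000134.11) was 11.31, 11.41 and 11.43 in control, 11.53, 11.43 and 11.58 in MCTP and 11.55, 11.55 and 11.52 in shNsd2 libraries. It rose by 0.16 with shNsd2 (standard error 0.040, adjusted p = 0.0105 from limma) and was 0.13 with MCTP, where its values were above control (standard error 0.059, adjusted p = 0.111; 0.078 after GC correction). Messenger RNA levels do not report where these proteins are in the cell.

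Promoters of the genes were searched for the core of the element bound by these factors, because many of the genes rose together with MCTP. Many lysosome genes are known to share this element. A high frequency among the 44 genes thus follows from how they were chosen and is no result of the treatments. RefSeq promoter windows (GRCm38.p6), which span the start of a gene, were matched by symbol for 37 of the 44 genes; Asah1, Atp6v0a2, Atp6v1b2, Atp6v1c1, Atp6v1g1, Atp6v1h and Ctsb had no entry. The letters TCACGTGA, which read the same on both strands and contain the E-box CACGTG, occurred in at least 1 window of 8 of the 37 genes (21.6%), against 0.974% of all 32851 windows and 2.2% of the 9679 genes of the table with a window. The shorter CACGTG occurred in 13 of the 37 (35.1%), against 7.15% of all windows and 11.8% of those genes. With MCTP, 6 of the 8 genes with the longer core rose (median log2 fold change 0.39), against 17.9% of all genes that passed the filter in each group. Of the 27 that lacked the core and passed that filter, 14 rose (median 0.18), with no test of the difference. With shNsd2, 2 of the 8 rose and 3 fell (median 0.018), and 6 of the same 27 rose and 10 fell (median -0.084). Of all genes 23.0% rose and 24.7% fell, so the shares that rose were near that of all genes. How the other genes of the table with the core moved was not examined. The core in capitals with the bases around it is shown for all 8 genes, first for the 6 that rose with MCTP and then for Atp6v1a and Gla, which did not pass the threshold.
Ctsd (chr7:142387908-142387937, minus strand): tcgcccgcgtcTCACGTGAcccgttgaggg
Ctsa (chr2:164833749-164833778, plus strand): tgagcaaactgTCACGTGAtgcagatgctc
Ctsa (chr2:164833766-164833795, plus strand): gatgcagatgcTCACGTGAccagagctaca
Atp6v0d1 (chr8:105566050-105566079, minus strand): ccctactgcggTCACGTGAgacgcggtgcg
Atp6v0e (chr17:26676387-26676416, plus strand): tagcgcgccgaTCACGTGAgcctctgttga
Cln3 (chr7:126583340-126583369, minus strand): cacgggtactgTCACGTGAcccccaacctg
Mcoln1 (chr8:3500462-3500491, plus strand): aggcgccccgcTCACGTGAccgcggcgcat
Atp6v1a (chr16:44139373-44139402, minus strand): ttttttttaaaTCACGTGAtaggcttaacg
Gla (chrX:134601182-134601211, minus strand): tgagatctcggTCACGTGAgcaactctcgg
Gla (chrX:134601215-134601244, minus strand): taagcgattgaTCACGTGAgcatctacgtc

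A match of letters in a window is a description of the sequence and does not show that a factor was bound there. Ctsa and Gla each held the core at 2 places, and the 2 windows of Ctsa overlap by 13 bases.

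Other genes of the pathway were described as lists. Of the 29 other lysosomal hydrolase and activator genes tested, 16 (55.2%) rose and 2 (6.9%) fell with MCTP (median 0.21), against 18.0% and 17.2% of all genes. With shNsd2, 2 (6.9%) rose and 17 (58.6%) fell (median -0.17), against 23.1% and 24.8%, and directly 1 (3.45%) was higher and 23 (79.3%) were lower than with MCTP (median -0.38), against 20.6% and 22.6%. Leaving out 1 library gave 7 to 18 rises with MCTP (24.1% to 62.1%), 13 to 16 falls with shNsd2 (44.8% to 55.2%) and 19 to 24 lower genes directly. The largest falls with shNsd2 were those of Ctso, a cysteine cathepsin (-0.72, standard error 0.061, adjusted p = 3.47e-05 from limma), Manba, a mannosidase (-0.61, adjusted p = 8.43e-06), and Naglu, which acts on heparan sulfate (-0.53, adjusted p = 2.92e-05). Ctso was 8.13, 7.95 and 8.06 in control, 7.28, 7.27 and 7.43 in shNsd2 and 8.08, 8.23 and 7.99 in MCTP libraries. Manba was 10.19, 10.26 and 10.28 in control, 9.60, 9.63 and 9.66 in shNsd2 and 10.22, 10.16 and 10.13 in MCTP libraries. In both genes the shNsd2 libraries stood far below the others, which overlapped. The rises with shNsd2 were those of Ppt2 (0.24) and Pla2g15 (0.12, called in 1 of the 6 fits without a library, and 0.082 with adjusted p = 0.0715 from limma after GC correction). With MCTP, Ctsf (0.47, a weakly expressed gene), Fuca1 (0.44, called in 5 of the 6 fits without a library) and the mannosidase gene Man2b1 (0.42) rose most, and the cathepsin C gene Ctsc (-0.49; -0.30 after GC correction) and the sulfatase gene Galns (-0.27, called in 3 of 6) fell. Man2b1 was 11.003, 10.990 and 11.068 in control, 11.432, 11.331 and 11.543 in MCTP and 10.992, 10.967 and 10.925 in shNsd2 libraries. Ctsc, which activates serine proteases of granules, was 10.79, 10.78 and 10.81 in control, 10.36, 10.36 and 10.21 in MCTP and 10.51, 10.50 and 10.57 in shNsd2 libraries, lower than control in every treated library. Direct differences were largest for Ctso (-0.77), Idua (-0.66) and Sgsh (-0.56), of which Idua and Sgsh encode enzymes that degrade heparan sulfate, and Ctsc was the gene that was higher (0.22), in 3 of the 6 fits without a library and not after GC correction (0.087, adjusted p = 0.205 from limma).

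Of 18 other lysosomal membrane protein genes, 9 (50.0%) rose and none (0) fell with MCTP (median 0.16; 0 falls also at an unadjusted p under 0.05 in limma), against 18.0% and 17.2% of all genes. With shNsd2, 2 (11.1%) rose and 7 (38.9%) fell (median -0.050), against 23.1% and 24.8%, and 12 (66.7%) were lower with shNsd2 than with MCTP (median -0.26), against 22.6%. Leaving out 1 library gave 6 to 10 rises with MCTP, 6 to 8 falls with shNsd2 and 10 to 15 lower genes directly. Cd68, a lysosomal glycoprotein related to the Lamp proteins, was 6.50, 6.51 and 6.60 in control, 7.20, 7.15 and 7.44 in MCTP and 6.78, 6.78 and 6.72 in shNsd2 libraries, with no overlap between the groups. It rose by 0.73 with MCTP (standard error 0.079, adjusted p = 0.000688 from limma) and by 0.23 with shNsd2 (standard error 0.042, adjusted p = 0.00227), with a direct difference of -0.50 (adjusted p = 0.002). The cystine exporter gene Ctns rose by 0.49 and the chloride exchanger gene Clcn7 by 0.41 with MCTP. Tmem175, a channel of the lysosomal membrane, was 8.91, 8.86 and 8.87 in control, 8.46, 8.42 and 8.39 in shNsd2 and 9.06, 8.98 and 9.17 in MCTP libraries. It fell by 0.46 with shNsd2 (adjusted p = 4.73e-05 from limma), followed by the channel gene Tpcn1 (-0.37) and by Cd164 (-0.33), and the amino acid transporter gene Slc36a1 (0.26) rose. Direct differences were largest for Ctns (-0.67) and Tmem175 (-0.65).

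Most lysosomal hydrolases reach the lysosome on mannose 6-phosphate receptors. Of 9 genes of this delivery route, 2 rose and none (0) fell with MCTP (median 0.018; 0 falls also at an unadjusted p under 0.05 in limma), and 3 (33.3%) rose and 2 (22.2%) fell with shNsd2 (median 0.073). With 1 library left out, 2 to 4 (22.2% to 44.4%) rose and 0 to 1 fell with MCTP. After GC correction 3 rose and 1 fell with MCTP, where 22.6% and 23.0% of all genes did. As deposited, the 22.2% that rose and the 0 that fell with MCTP stood against 18.0% and 17.2% of all genes. The shares with shNsd2 stood against 23.1% and 24.8%. The share that rose with MCTP and the share that fell with shNsd2 were thus near those of all genes. The values below describe single genes. The receptor gene Igf2r was 12.93, 12.86 and 12.96 in control, 12.52, 12.54 and 12.53 in shNsd2 and 12.87, 12.81 and 12.80 in MCTP libraries and fell by 0.39 with shNsd2 (standard error 0.035, adjusted p = 5.29e-05 from limma). The other receptor gene, M6pr, fell by 0.13 (adjusted p = 0.00683), whereas Gga3 (0.25), Nagpa (0.20) and Gga1 (0.18, called in 5 of 6 fits without a library), which serve sorting at the Golgi, rose. After GC correction M6pr, Nagpa and Gga1 were at -0.081, 0.12 and 0.10. The sortilin gene Sort1 rose by 0.46 with MCTP (standard error 0.039, adjusted p = 0.000233 from limma), from 5.83, 5.80 and 5.77 to 6.27, 6.23 and 6.29, and Nagpa by 0.34. Directly, Gga3 (0.28) and Gnptab (0.18, called in 1 of 6 fits without a library) were higher and Sort1 (-0.39) and Igf2r (-0.30) lower with shNsd2 than with MCTP. Of 7 cysteine cathepsin inhibitor genes 3 were tested. With MCTP Cst3 (0.32) and Cstb (0.23) rose, each called in 1 of the 6 fits without a library. With shNsd2 Cst3 (-0.25) and Cst6 (-0.16, called in 4 of 6) fell. All 3 were lower with shNsd2 than with MCTP (Cst3 -0.56, Cst6 -0.40 and Cstb -0.29). Of all genes, 18.0% rose with MCTP, 24.8% fell with shNsd2 and 22.6% were lower directly. With 3 genes tested, these counts are not read as a result of the list.

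In autophagy, which delivers cytoplasm to lysosomes, 11 of 23 genes (47.8%) rose and none (0) fell with MCTP (median 0.15; 0 falls also at an unadjusted p under 0.05 in limma), against 18.0% and 17.2% of all genes, and 2 (8.7%) rose and 8 (34.8%) fell with shNsd2 (median -0.049), against 23.1% and 24.8%. Leaving out 1 library gave 4 to 12 rises and 0 to 2 falls with MCTP, 5 to 8 falls with shNsd2 and 8 to 15 lower genes directly. The rises with MCTP were led by the genes of proteins that coat the autophagosome, Map1lc3a (0.43), Gabarap (0.41) and Map1lc3b (0.39), called in 3, 5 and 5 of the 6 fits without a library. Map1lc3b was 12.09, 12.16 and 12.16 in control, 12.56, 12.35 and 12.67 in MCTP and 12.21, 12.15 and 12.12 in shNsd2 libraries, with only MCTP apart from control (adjusted p = 0.0105 from limma). With shNsd2 the receptor genes Tax1bp1 (-0.29) and Optn (-0.28) and the coat gene Gabarapl1 (-0.22) fell, and Wipi2 (0.31) and Ulk1 (0.12, called in 3 of these fits; 0.059 with adjusted p = 0.107 from limma after GC correction) rose. Directly, 15 genes (65.2%) were lower and 1 (4.35%) was higher with shNsd2 than with MCTP (median -0.22), against 22.6% and 20.6% of all genes, led by Map1lc3a (-0.57), Gabarapl1 (-0.57) and Map1lc3b (-0.37), with Wipi2 (0.25) the gene that was higher.

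Of 11 genes for the fusion of endosomes with lysosomes, 5 (45.5%) rose and 1 (9.09%) fell with MCTP (median 0.13), against 18.0% and 17.2% of all genes, and 2 to 6 rose when 1 library was left out. With shNsd2, 2 (18.2%) rose and 1 (9.09%) fell (median -0.022), below the 23.1% and 24.8% of all genes. Vamp8 (0.40), Vps18 (0.36) and Vps11 (0.34) rose with MCTP, each in 3 of the 6 fits without a library. The syntaxin gene Stx7 was 10.85, 10.79 and 10.74 in control, 10.25, 10.30 and 10.39 in shNsd2 and 10.52, 10.68 and 10.49 in MCTP libraries and fell by 0.48 with shNsd2 (standard error 0.047, adjusted p = 7.34e-05 from limma) and by 0.23 with MCTP (adjusted p = 0.0311, called in 1 of the 6 fits without a library, and -0.087 with adjusted p = 0.075 after GC correction). Vps33a (0.17) and Vps16 (0.15, called in 4 of these fits) rose with shNsd2. In the direct comparison 5 genes (45.5%) were lower with shNsd2 than with MCTP, against 22.6% of all genes. When 1 library was left out, 2 to 8 (18.2% to 72.7%) were lower, where 15.9% to 32.1% of all genes were. The lower genes were led by Vps11 (-0.36), Vps18 (-0.35) and Vamp8 (-0.34), and 1 gene, Vps16, was higher (0.27). These were called in 6, 3, 2 and 5 of the 6 fits without a library.

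The genes that control TFEB and TFE3 through mTORC1 showed no common direction against control as the values were deposited. Of 21 tested, 7 rose and 3 fell with MCTP (median 0.019), and 5 rose and 5 fell with shNsd2 (median -0.017), shares of 33.3%, 14.3%, 23.8% and 23.8% against 18.0%, 17.2%, 23.1% and 24.8% of all genes. The rises with MCTP were not stable: 10 genes (47.6%) rose without MCTP library 2, but 1 or 2 (4.76% or 9.52%) in each of the other fits that left out 1 library, against 29.8% and 9.19% to 12.8% of all genes. Sesn2, a stress-induced inhibitor of mTORC1, was 11.05, 11.18 and 11.32 in control, 11.72, 11.73 and 11.70 in shNsd2 and 11.44, 11.34 and 11.54 in MCTP libraries, with no overlap between the groups, and rose by 0.53 with shNsd2 (standard error 0.060, adjusted p = 0.000168 from limma). The kinase gene Mtor (0.25) and Akt1s1 (0.23) also rose with shNsd2, and Ppp3cb, a catalytic subunit of the calcineurin that dephosphorylates TFEB (-0.45), Lamtor3, a part of the scaffold that holds mTORC1 at the lysosome (-0.44), and Rheb, its activator (-0.37), fell. With MCTP, Akt1s1 (0.29), Lamtor4 (0.28) and Mtor (0.26) rose, and Fnip1 (-0.53), Ppp3cb (-0.44) and Rheb (-0.36) fell; of these 6, Mtor and Ppp3cb were called in all 6 fits without a library and each of the others in 1. GC correction made the values of Ppp3cb, Fnip1, Akt1s1 and Lamtor4 smaller (-0.24, -0.32, 0.19 and 0.18). With it, 7 of the 21 rose and 4 fell with MCTP, and 5 rose and 8 fell with shNsd2. Directly, 3 were then higher and 8 lower. The shares of all genes were 22.6% and 23.0%, 27.9% and 28.2%, and 28.0% and 28.4%. With shNsd2, the fits without 1 library gave 4 to 5 rises and 3 to 6 falls as deposited. In the direct comparison Deptor (0.33, called in 3 of the 6 fits without a library) and Sesn2 (0.28) were higher and Lamtor4 (-0.37), Lamtor3 (-0.35), Lamtor2 (-0.22) and Flcn (-0.17) were lower with shNsd2 than with MCTP, the last 2 called in 1 of these fits each (highest adjusted p 0.0986 and 0.142 from limma).

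Among 10 other genes of the V-ATPase, which are those of accessory subunits and assembly factors and Tcirg1, 4 rose and none (0) fell with MCTP (median 0.095; 3 lower at an unadjusted p under 0.05 in limma), against 18.0% and 17.2% of all genes, and 3 rose and 2 fell with shNsd2 (median 0.035), against 23.1% and 24.8%. When 1 library was left out, 2 to 5 rose and 0 to 4 fell with MCTP, and 1 to 3 rose and 1 to 2 fell with shNsd2. Atp6ap1, the accessory subunit inside the V0 sector, was 12.18, 12.23 and 12.27 in control, 12.61, 12.49 and 12.73 in MCTP and 12.38, 12.37 and 12.30 in shNsd2 libraries. It rose by 0.39 with MCTP (standard error 0.069, adjusted p = 0.0054 from limma) and by 0.12 with shNsd2 (adjusted p = 0.0231, called in 3 of 6 fits without a library). Atp6ap2, the other accessory subunit, was 11.12, 10.95 and 10.90 in control, 10.57, 10.92 and 10.62 in MCTP and 10.66, 10.64 and 10.84 in shNsd2 libraries. It fell by 0.28 with shNsd2 (standard error 0.069, adjusted p = 0.00951 from limma), and with MCTP the value of -0.29 was not past the threshold (adjusted p = 0.0601; -0.094 after GC correction). Rogdi, a component of the complex that reassembles the pump, rose by 0.45 with MCTP and 0.38 with shNsd2 (adjusted p = 0.00654 and 0.000266 from limma). Dmxl2 (0.28) rose and Wdr7 (-0.16) fell with shNsd2, called in 3 and 2 of the 6 fits without a library, and the assembly factor gene Tmem199 (0.21) rose with MCTP in 1 of them. Wdr7, the remaining rise with MCTP (0.20, called in 1 of them), was lower with shNsd2 than with MCTP (-0.36), as was Atp6ap1 (-0.26, called in 2 of them).

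Markers of cell types were read from the same libraries. Of 10 prostate epithelial markers 7 were tested: Krt8 and Krt18 were 16.28 ± 0.074 and 15.38 ± 0.12 in control libraries (mean ± SD, n = 3), Cdh1 was 11.77 ± 0.070, whereas Epcam, at 3.55 ± 0.0060, was under the filter, and Krt5 and Pbsn were not analysed here. The basal keratin genes Krt14 and Krt15 moved with the treatments: Krt14 rose by 1.19 with MCTP and 0.78 with shNsd2, and Krt15 fell by 1.20 with shNsd2 and was 0.065 with MCTP (adjusted p = 0.52 from limma; -0.027 after GC correction). Krt8 (-0.21, called in 3 of the 6 fits without a library) and Cdh1 (-0.20) also fell with shNsd2, the fall of Trp63 (-0.094) was called in 1 of these fits and was -0.033 after GC correction (adjusted p = 0.435 from limma), and Cdh1 fell by 0.34 with MCTP. Directly, Cdh1 was higher (0.14, in 1 of these fits) and Krt15 (-1.27), Krt8 (-0.46), Krt14 (-0.40, in 5) and Trp63 (-0.12, in 4) were lower with shNsd2 than with MCTP. Of the 7 tested, 1 rose and 1 fell with MCTP, against 18.0% and 17.2% of all genes. With shNsd2, 1 rose and 4 fell, against 23.1% and 24.8%, and directly 1 was higher and 4 lower, against 20.6% and 22.6%. The remaining tested markers were past the threshold in no comparison. Macrophages are rich in lysosomes, and 2 of their 11 markers, Cd68 and Mrc1, were tested, while Ptprc, Csf1r, Lyz2 and the other 6 were not analysed here. The sum of the linear values of the tested markers was 124, 123 and 129 in control, 183, 179 and 208 in MCTP and 142, 141 and 139 in shNsd2 libraries, most of it from Cd68. Mrc1, the more specific marker, lay low in the table (5.06, 4.98 and 5.01 in control, 5.16, 5.23 and 5.11 in MCTP and 5.02, 4.97 and 5.05 in shNsd2 libraries) and rose by 0.15 with MCTP (adjusted p = 0.0278 from limma; called in 3 of 6 fits without a library; 0.28 after GC correction), with a direct difference of -0.15 (adjusted p = 0.0206; also 3 of 6). The part of macrophages in the lysosomal values was not tested. Of 8 fibroblast markers 3 were tested, of which Col1a1 (-0.30) and Col3a1 (-0.28) fell and Pdgfra (0.13) rose with shNsd2, and Col1a1 fell by 0.33 with MCTP. Of all genes, 24.8% fell and 23.1% rose with shNsd2 and 17.2% fell with MCTP. With 3 markers tested, these counts are not read as a result of the list. The direct differences of Pdgfra and Col3a1 were past the threshold in 2 of the 6 fits without a library each and not after GC correction (adjusted p = 0.0721 and 0.0657 from limma). Of 4 endothelial markers, Cdh5 was under the filter at 3.50 ± 0.019 in control libraries, and the others were not analysed here.

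Exons of 18 of the 44 genes overlap exons of another gene in the mouse annotation (GENCODE M21), many on the opposite strand, as for Ctsa with Pltp and Neurl2, Ctsb with Fdft1, Sqstm1 with Mrnip, Cln3 with Apobr and Lamp1 with Grtp1. On its own strand Glb1 shares 165 bases of exon with Tmppe, Ctsd 808 with Gm49369, Ctsl 395 with the pseudogene Gm49230 and Atp6v0a4 259 with D630045J12Rik. Whether reads were counted by strand is not given in the sources used here, so reads of such pairs cannot be told apart. The entry of Tmppe was 0.13 with shNsd2 (adjusted p = 0.0361 from limma), opposite in sign to Glb1, a call made in 1 of the 6 fits without a library and lost after GC correction (0.078, adjusted p = 0.172).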

How the data were processed

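The authors deposited 1 table of log2 values for 12842 genes, and 9 of its columns were used. Another 3 columns matched no sample and were not used here. The submitters state alignment to mm9 with TopHat, and name Cufflinks, DESeq, DESeq2 and bcl2fastq 1.8.4. The study's methods give, for sorted tumour and metastasis cells, a normalization and variance stabilization of counts in DESeq2, without the function or its settings. Nothing was normalized again for the tests. Genes had to exceed 3.78 (the median taken among the lowest 10% of values) in 3 or more of the 6 libraries compared. Each comparison was fitted alone in limma 3.58.1 (R 4.3.3) with a trended, moderated variance, and p-values were adjusted over all genes tested by the Benjamini-Hochberg method. Tables and figures were made with Python 3.11.15, pandas 2.3.3, scipy 1.17.1 and matplotlib 3.10.9. All 44 genes are given. In the other lists, the 3 largest calls of each direction and comparison are named, besides those that complete a short count. Some alleles and list genes, with the results that need them, are not reported here, and the counts of those lists were made without them. Members and lists were chosen with earlier results of these data known. Alternatives were a fit over all 9 libraries, replicate number as a block, no trend, no filter, median centring, quantile normalization, a correction for GC content (lowess, span 0.3), a difference of at least 0.25, and each library left out; fits with 1 treated library, which give no result here, and a filter passed by 2 or more libraries of each group were added after seeing the data. Of the gene identifiers, 97.4% (12513) were found in GENCODE M21, whose build differs from that of the alignment. Replicates of a group correlated at 0.996 or more.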

Additional observations from a re-analysis of the deposited data

How the results depend on the processing

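For shNsd2 against control, 9 of the 44 lysosome and V-ATPase genes were higher and 17 lower; with all 9 libraries in one fit these were 5 and 10, and with a fold change of at least 0.25 on the log2 scale 1 and 7 (886 and 1341 of all 12205 genes). The fit with shNsd2 library 1 alone, chosen after seeing the data, gave 2 and 7; it has 1 treated library without replicates and takes its spread from the controls, so it is not used as a result. Leaving out 1 library gave 9 to 9 higher and 11 to 19 lower, the replicate block gave 9 and 12 (17.2% and 19.7% of all genes), and median centring 10 and 12 (26.6% and 21.2%). For MCTP against control, 22 were higher and 1 lower; leaving out 1 library gave 7 to 29 higher and 0 to 2 lower, and the replicate block gave 17 and 1 (13.9% and 14.0% of all genes). A filter passed in each group, chosen after seeing the data, left out Atp6v0a4 and gave 21 and 1. For shNsd2 against MCTP, 0 were higher in limma (1 at an unadjusted p under 0.05) and 28 lower; all 9 libraries in one fit, quantile normalization and GC correction each gave 1 higher, leaving out 1 library gave 20 to 37 lower, the replicate block gave 22 lower (2079 of all 12217 genes), and the filter passed in each group gave 27 lower. Nsd2 with MCTP was -0.30 and -0.12 after GC correction (adjusted p = 0.0775 from limma). Atp6ap2 for shNsd2 against MCTP turned from 0.0080 (adjusted p = 0.957 from limma) to -0.14 after GC correction (adjusted p = 0.0296); the cause was not tested. Libraries with the same replicate number had a mean correlation of their deviations from the group means of -0.251 for shNsd2 and control (range -0.511 to 0.247), -0.185 for MCTP and control (range -0.600 to 0.612) and -0.361 for shNsd2 and MCTP (range -0.805 to 0.353), and replicate numbers were not treated as pairs.

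Whether replicates are separate cultures is not given, and the depth of the libraries is unknown. The study's methods name a variance stabilization with DESeq2 without its settings, and weakly expressed genes have understated fold changes. The treated libraries carry different labels within their group, and whether these are different agents is not given. Calls with MCTP changed in number with each library left out, and deviations followed GC content to a different degree in each library. All comparisons with control share the same 3 libraries. Bulk RNA does not separate the number of cells from RNA per cell, and protein, pH and enzyme activity were not measured in these data.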
